A study of Glycine max with 2 samples.

Results

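WRKY transcription factors are a large plant family of DNA-binding proteins, and their response to salt was followed here through every probe set assigned to 1 soybean gene whose symbol is WRKY plus a number. That choice used gene symbols and no measured value. It gave 103 probe sets for 52 genes, out of 8677 probe sets for 6031 genes that carry a single gene name and 37593 soybean probe sets in all. All 52 genes kept the same symbol in the RefSeq gene table. Another 6 probe sets that name a WRKY gene together with a second gene were not counted as members.

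The salinity group was soybean seedlings (Glycine max, cultivar Williams 82) aged 14 days and given 150 mM NaCl. The mock group was seedlings of the same cultivar and age given water only. Seedlings of both groups grew in vermiculite at 25 °C with 16 h of light, and the labels name no organ. RNA taken 1, 3, 6, 12 and 24 h after the start was combined into 1 pool per group (the design text also lists a sample at the start), and each pool was hybridised to 1 Affymetrix Soybean Genome Array. With 1 array per group no test was possible. All differences below describe these 2 arrays, and genes are counted by a fixed limit of 2-fold instead. A pool averages over times and plants, so an early and a late change of opposite sign could cancel in it, and fewer cells of a type cannot be told apart from less RNA per cell.

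WRKY proteins are named for a short conserved amino acid motif that, with a zinc finger beside it, binds the W-box, a DNA element found in the promoters of many stress and defence genes, often those of WRKY genes themselves. Some members activate and others repress transcription, and several act downstream of MAP kinase cascades. They are known above all from defence against pathogens, and members also act in salt, drought and nutrient stress. Soybean WRKY numbers do not follow the Arabidopsis numbers, so an Arabidopsis role cannot be read from a soybean name.

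Most WRKY genes differed little between the pools, as did most of all genes measured. Each gene was represented by its brightest probe set, and its ratio is log2(salinity / mock) of the deposited log2 signals. Of 52 genes, 5 were at least 2-fold lower on the salinity array (WRKY55, WRKY46, WRKY43, WRKY60 and WRKY30) and 1, WRKY64, was at least 2-fold higher. The share that was lower was 9.62% of WRKY genes, against 5.67% of the 5892 genes measured in all. The share that was higher was 1.92%, against 5.02% of all genes measured. A single gene makes up 1.92% of the family, and neither difference was tested. The median log2 ratio was -0.02 over the WRKY genes and -0.0033 over all genes, and 29 WRKY genes lay below 0, 55.8% against 50.2% of all genes.

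At the milder limit of 1.5-fold, 11 WRKY genes were lower and 5 were higher. These counts were 21.2% and 9.62% of the family. Over all genes measured, the same limit was passed by 14.7% lower and 11.4% higher. At 3-fold, WRKY55 was lower and WRKY64 higher, each 1.92% of the family, against 1.54% lower and 2.27% higher among all genes. The WRKY64 call at 3-fold depends on how its dim mock signal is treated. Of the 52 genes, 36 lay within 1.5-fold, 21 of them within 0.2 of 0 on the log2 scale, a limit not counted over all genes. Within 0.5 of 0 lay 33 WRKY genes, 63.5%, against 68.8% of all genes measured. Small differences were thus the rule on these arrays and not particular to the family. The middle of the family ran from a log2 ratio of -0.45 at the lower quartile to 0.15 at the upper, against -0.32 and 0.25 for all genes. The SD of the log2 ratio over the 52 genes was 0.65, and 0.69 over all genes, so the spread of the family was close to that of the array as a whole.

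**Figure D1:**
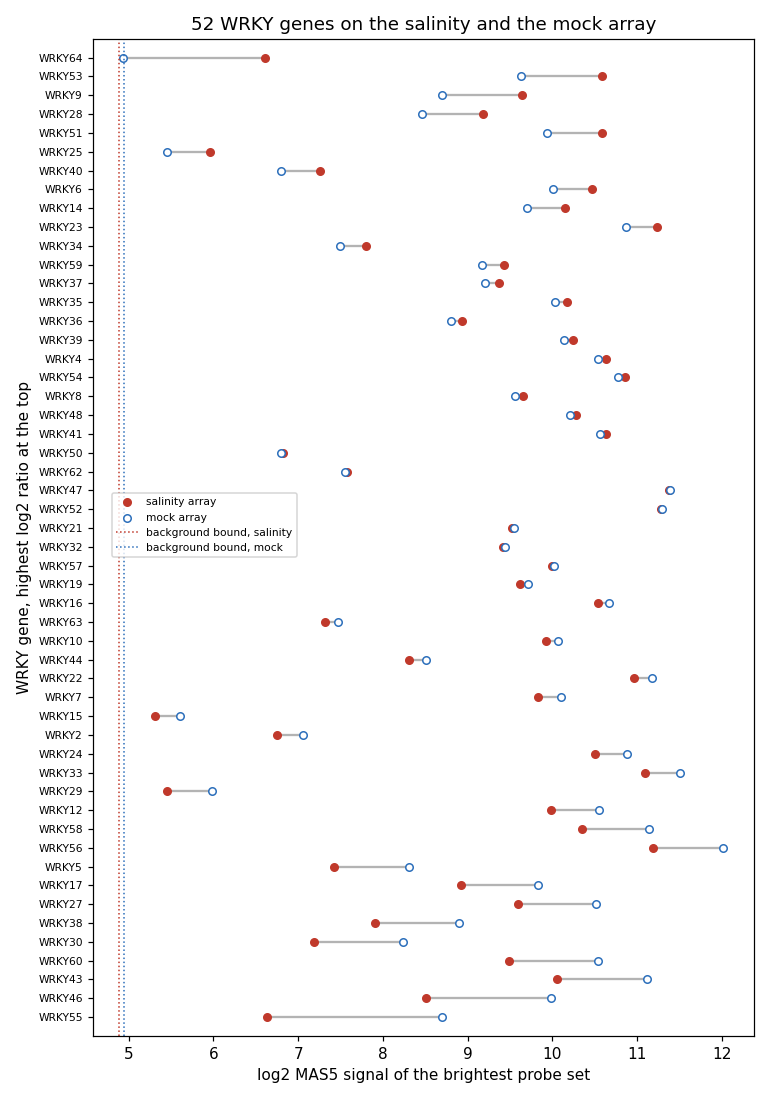
Log2 MAS5 signal of the brightest probe set of each of the 52 WRKY genes on the salinity array (filled) and the mock array (open), ordered by log2 ratio with the highest at the top. Dotted lines mark the background bound of each array. WRKY64, at the top, is the only gene below the mock bound (4.94), and WRKY55, at the bottom, has the widest gap, with 6.63 in the salinity pool and 8.70 in the mock pool.

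WRKY transcripts were readily measured in both pools. A probe set counted as measured when its log2 signal passed 4.88 on the salinity array or 4.94 on the mock array. These bounds are the level that 95% of the 23350 probe sets for a soybean oomycete pathogen and a soybean nematode stayed under on each array. Measured in this sense were 101 of 103 WRKY probe sets (98.1%), against 89.9% of all soybean probe sets. For 98 WRKY sets both signals passed, and for 3 sets only 1 did. The other 2 sets, 1 each of WRKY29 and WRKY63, were below the bound on both arrays and gave no ratio. Every WRKY gene had at least 1 measured set, and 51 of 52 were above the bound on both arrays by their brightest set. Most soybean probe sets carry no single gene name, so the fairer comparison is with named genes. Of all 6031 genes with a single gene name, 5892 were measured by their brightest set, and 5769 were above the bound on both arrays. Being measured was thus usual for named genes and not particular to WRKY genes.

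WRKY55 had the lowest ratio of the family. Its single probe set had a log2 signal of 6.63 in the salinity pool and 8.70 in the mock pool, 4.19-fold lower with salt. WRKY46 followed, with 8.51 in the salinity pool and 9.98 in the mock pool, 2.76-fold lower. Each of these genes was read by 1 probe set, so no second reading of them exists on the arrays.

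WRKY43 had a log2 signal of 10.05 in the salinity pool and 11.11 in the mock pool, 2.09-fold lower, again by 1 probe set. WRKY60 was read by 2 probe sets. Its brightest set had 9.49 in the salinity pool and 10.54 in the mock pool, 2.07-fold lower. Its other set had 7.24 in the salinity pool and 8.55 in the mock pool, so both sets were past 2-fold in the same direction, with log2 ratios of -1.05 and -1.31.

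WRKY30 behaved likewise. Its brightest set had 7.19 in the salinity pool and 8.23 in the mock pool, 2.05-fold lower, and its other set had 6.00 in the salinity pool and 7.16 in the mock pool. The log2 ratios were -1.04 and -1.16. WRKY30 was the gene just inside the 2-fold limit and WRKY38 the gene just outside it, at -0.996 (1.99-fold lower), with 7.90 in the salinity pool and 8.90 in the mock pool.

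The genes lower by 1.5- to 2-fold were WRKY38 and 5 more. WRKY17, read by 1 probe set, had a log2 signal of 8.92 in the salinity pool and 9.83 in the mock pool (log2 ratio -0.91). WRKY5, also read by 1, had 7.42 in the salinity pool and 8.31 in the mock pool (-0.88). The only set of WRKY58, which carries a suffix for probes that can match several transcripts, had 10.35 in the salinity pool and 11.14 in the mock pool (-0.79). None of these 3 genes has a second reading on the arrays.

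WRKY56 offered the fullest repeat reading among the lower genes. Its 5 probe sets all lay below 0, with log2 ratios from -1.08 to -0.37 and an SD of 0.27 around their mean. The sets at -1.08 and -0.37 have IDs that differ only in suffix and may share probes. The brightest had 11.18 in the salinity pool and 12.02 in the mock pool (-0.84, 1.78-fold lower) and carries a suffix for several transcripts. The brightest set without a suffix, at 8.78 in the salinity pool and 9.87 in the mock pool, gave -1.08, past the 2-fold limit.

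WRKY27 is the soybean gene whose product has been described to act with a MYB factor on a NAC gene in the stress response of soybean. Its probe sets did not give 1 answer. The brightest, with a suffix for several transcripts, had 9.60 in the salinity pool and 10.51 in the mock pool (log2 ratio -0.92). The next, nearly as bright and without a suffix, had 9.51 in the salinity pool and 9.44 in the mock pool (0.07), and the dimmest had 6.67 in the salinity pool and 7.18 in the mock pool (-0.51). Whether WRKY27 was lower with salt therefore depends on the probe set read.

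WRKY64 was the only WRKY gene at least 2-fold higher. Its single probe set had a log2 signal of 6.61 in the salinity pool and 4.94 in the mock pool, where it was just below the bound. By this bound it was at least 3.18-fold higher with salt. The call of the mock signal rests on the bound: with the bound at the 90th percentile it was above background, and the log2 ratio was 1.67. With the bound at the 99th percentile the log2 ratio was at least 0.90, under the 2-fold limit. With log2(signal + 16) and no floor it was 1.29, so the size of the difference depends on how dim signals are treated.

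WRKY53 and WRKY9 came close to that limit. WRKY53 had 10.58 in the salinity pool and 9.63 in the mock pool by its single set (1.94-fold higher). WRKY9 had 9.64 in the salinity pool and 8.69 in the mock pool by its brightest set (1.92-fold higher), and its other sets gave log2 ratios of 0.46 and 0.47. All 3 WRKY9 sets were higher with salt, the brightest by the most. The ID of the brightest carries A1, a mark of sequence orientation, and the IDs of the other sets carry S1. Whether sets of both orientations read the WRKY9 transcript was not tested. The IDs of the other sets differ only in suffix, so these sets may share probes.

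WRKY51 had the most even repeat readings among the genes at least 1.5-fold higher. Its 4 probe sets gave log2 ratios from 0.64 to 0.80, with an SD of 0.08. The IDs of its brightest set and the next differ only in suffix. These sets may share probes, so the SD may be too small. The brightest had 10.58 in the salinity pool and 9.94 in the mock pool, 1.56-fold higher. WRKY28 was 1.64-fold higher by its brightest set, with 9.18 in the salinity pool and 8.46 in the mock pool, but its other set had 8.03 in the salinity pool and 8.18 in the mock pool (-0.16). The higher reading of WRKY28 was thus not shared by its second set.

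Below 1.5-fold, the highest ratios belonged to WRKY25 (log2 ratio 0.51), WRKY40 (0.46), WRKY6 (0.45) and WRKY14 (0.45), and the lowest to WRKY12 (-0.56), WRKY29 (-0.53) and WRKY33 (-0.42). Signals of WRKY25 (5.96 in the salinity pool and 5.45 in the mock pool) and WRKY29 (5.45 in the salinity pool and 5.98 in the mock pool) were near the bounds, where MAS5 values are least precise. WRKY33 was read by 2 sets that both lay below 0, with 11.09 in the salinity pool and 11.51 in the mock pool for the brightest. WRKY23 had 11.24 in the salinity pool and 10.87 in the mock pool, and all 5 of its sets lay above 0, from 0.08 to at least 0.54. Its dimmest set, with 5.49 in the salinity pool and 2.28 in the mock pool, passed the salinity bound but not the mock bound. The 0.54 from this set is therefore a lower limit, and the highest ratio from a WRKY23 set above both bounds was 0.47.

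Soybean WRKY54 and WRKY21 have been studied for stress tolerance by overexpression in Arabidopsis, WRKY54 for salt and drought and WRKY21 for cold. WRKY54 had a log2 signal of 10.86 in the salinity pool and 10.78 in the mock pool, a log2 ratio of 0.08. WRKY21 had 9.53 in the salinity pool and 9.54 in the mock pool, and both its sets lay within 0.06 of 0. Both genes were near level in these pools. So were WRKY47, with 11.37 in the salinity pool and 11.39 in the mock pool, and WRKY52, with 11.28 in the salinity pool and 11.30 in the mock pool.

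WRKY22 showed the widest spread among probe sets by the ratios used, in which the dimmest sets of WRKY4 and WRKY23 are limits. All 5 of its sets lay below 0, but the log2 ratios ran from -1.35 to -0.21. The brightest had 10.96 in the salinity pool and 11.18 in the mock pool (-0.21), and the dimmest had 5.45 in the salinity pool and 6.80 in the mock pool (-1.35). The sets between them gave -0.22, -0.50 and -0.73. The IDs of the sets at -1.35 and -0.50 differ only in A1 and S1, a mark of sequence orientation. The ID of the brightest set also carries A1. Whether sets of both orientations read the WRKY22 transcript was not tested. All readings assigned to WRKY22 were lower, while the size differed by more than 1 log2 unit, a width that rests on the dimmest set.

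**Figure D2:**
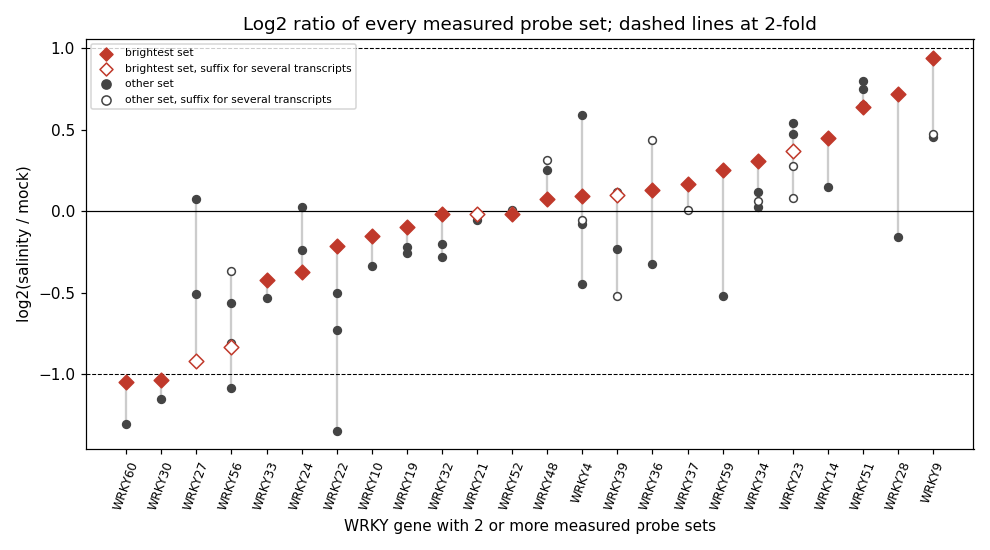
Log2(salinity / mock) of every measured probe set of the 24 WRKY genes with at least 2 such sets, ordered by the brightest set (diamond); other sets are circles, and open symbols have an ID suffix for several transcripts. Solid and dashed lines mark 0 and 2-fold. WRKY60 and WRKY30 are the only genes with every set below the lower dashed line. WRKY22 has the widest range as drawn (1.13), but the dimmest sets of WRKY4 and WRKY23 are limits.

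Probe sets of the same gene are the only repeat measurement on these arrays, and their spread says nothing of how plants, pools or arrays vary. Of the 24 WRKY genes with at least 2 measured sets, 16 (66.7%) had all sets on 1 side of 0, with 9 lower and 7 higher. Over all 1681 such genes on the array the share was 68.7%. The log2 ratios of the brightest set and the next brightest were subtracted. The SD of this gap over genes, divided by the square root of 2, was 0.26 for WRKY genes and 0.32 for all genes. This gives the error of 1 set only where the sets are independent. Some pairs, such as those of WRKY21 and WRKY52, have IDs that differ only in suffix and may share probes, so the error may be larger. The limit of 0.2 around 0, which 21 WRKY genes met, is itself smaller than this spread, so those genes fall inside it by definition.

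The 8 WRKY genes whose sets pointed both ways were WRKY4, WRKY24, WRKY27, WRKY28, WRKY36, WRKY39, WRKY52 and WRKY59. For WRKY52 both sets were within 0.02 of 0. The brightest of 5 WRKY4 sets had 10.63 in the salinity pool and 10.54 in the mock pool (0.09). The highest WRKY4 ratio, 0.59, came from a set with 9.81 in the salinity pool and 9.22 in the mock pool. The lowest, -0.45, is a limit from a set at 3.93 in the salinity pool, under the bound, and 5.33 in the mock pool. The 2 sets between them were near 0, at -0.06 and -0.08, so WRKY4 was near level by 3 of its 5 sets. The IDs of the sets at -0.45 and -0.08 differ only in the mark of sequence orientation. WRKY59 had 9.42 in the salinity pool and 9.17 in the mock pool by its brightest set (0.25), but 6.57 in the salinity pool and 7.09 in the mock pool by the other (-0.52). The brightest WRKY36 set had 8.93 in the salinity pool and 8.80 in the mock pool (0.13). Its other sets split, with 8.29 in the salinity pool and 7.85 in the mock pool for the one with a suffix (0.44), and 6.96 in the salinity pool and 7.28 in the mock pool for the one without (-0.32).

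The 4 WRKY39 sets fell into pairs by ID stem. The pair that holds the brightest set had 10.24 and 10.03 in the salinity pool and 10.14 and 9.92 in the mock pool, with ratios of 0.10 and 0.11. The other pair had 8.23 and 7.33 in the salinity pool and 8.75 and 7.57 in the mock pool, with ratios of -0.52 and -0.24. The stems of WRKY39 thus pointed opposite ways. WRKY24 had 10.50 in the salinity pool and 10.88 in the mock pool by its brightest set (-0.38), and 9.22 in the salinity pool and 9.46 in the mock pool by the next (-0.24). Its dimmest set was level, with 8.47 in the salinity pool and 8.44 in the mock pool (0.02). For all 8 genes, the places in the counts above rest on the brightest set alone.

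Some members share a stem of the probe set ID, which marks transcripts grouped as 1 cluster when the array was designed, so their readings may not be separate. These were WRKY52 with WRKY16, WRKY19 with WRKY62, and WRKY28 with WRKY32. WRKY16 and WRKY52 differed little, at log2 ratios of -0.14 and -0.02. WRKY19 lay at -0.10 and WRKY62 at 0.02. In the third pair the brightest sets differed, with 0.72 for WRKY28 and -0.02 for WRKY32, while the second WRKY28 set (-0.16) lay within the range of the WRKY32 sets (-0.28 to -0.02).

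**Figure D3:**
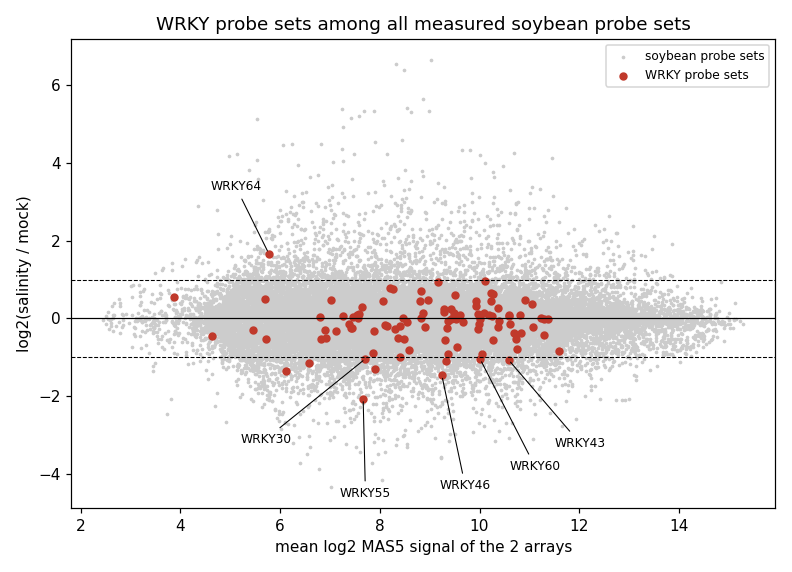
Log2(salinity / mock) against the mean log2 MAS5 signal of the 2 arrays for all measured soybean probe sets (grey) and the 101 measured WRKY probe sets (red), with the 6 genes past 2-fold named at their brightest set. Dashed lines mark 2-fold. The WRKY sets lie inside the cloud of all probe sets, with 9 at or below the lower line and 1 above the upper.

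Counted as probe sets, 9 of 101 WRKY sets were at least 2-fold lower and 1 was at least 2-fold higher. Among all 33784 measured soybean probe sets, 5.36% were lower and 4.33% higher by the same limit. Below 0 lay 56 of the WRKY sets, against 50.3% of all sets. The 9 sets came from WRKY55, WRKY46, WRKY43, WRKY60, WRKY30, WRKY22 and WRKY56, of which WRKY60 and WRKY30 gave 2 each. The WRKY22 set is the dimmest of that gene, and its ID differs from that of another set only in the orientation mark. Probe sets of 1 gene are not independent, so the count by gene is the one to read. Sets with a suffix for several transcripts (21 of 103) had a median log2 ratio of 0.01, and the sets without one -0.12.

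WRKY genes were set beside 3 other families of transcription factors taken by symbol. NAC genes had a median log2 ratio of 0.28, bZIP genes 0.22 and MYB genes -0.01, against -0.02 for WRKY genes. At least 2-fold higher were 3 of 15 NAC, 6 of 55 bZIP and 4 of 59 MYB genes measured, against 1 of 52 WRKY genes. At least 2-fold lower were none of the NAC genes, 1 bZIP gene and 3 MYB genes, against 5 WRKY genes. The WRKY ratios reached 1.67 at the top as a lower limit, and the highest NAC, MYB and bZIP ratios were 2.79, 2.51 and 2.07. These differences between families were not tested.

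**Figure D4:**
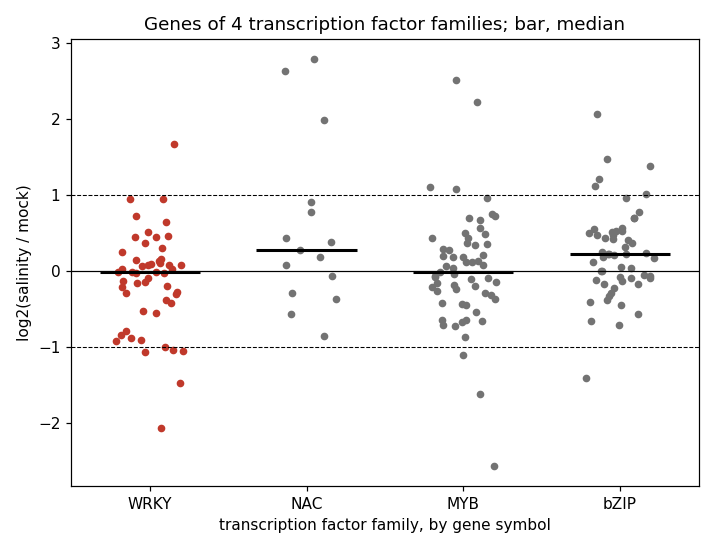
Log2(salinity / mock) of each measured gene of the WRKY (52), NAC (15), MYB (59) and bZIP (55) families by its brightest probe set; bars are medians, dashed lines mark 2-fold, and points are spread sideways for legibility. WRKY genes have 1 point above the upper line and 5 below the lower one. Of all genes measured, 5.02% were above and 5.67% below.

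Genes that WRKY factors are known to work with were read from lists by symbol. MAP kinase cascade genes, whose kinases phosphorylate some WRKY proteins, were 3 (MAPKK2, MPK4B and MAPK2), and none differed 2-fold. Such a difference was found for 5.02% of all genes measured in the higher and 5.67% in the lower direction. MPK4B had a log2 signal of 11.29 in the salinity pool and 10.94 in the mock pool (log2 ratio 0.36), and MAPK2 lay at -0.03. MAPKK2 gave 0.30, 0.31 and 0.69 by its 3 sets, the first from the brightest, with 11.90 in the salinity pool and 11.60 in the mock pool. No gene was found for the VQ proteins, which bind WRKY factors. By its brightest set, each cascade gene lay within 1.5-fold, as did 36 of the 52 WRKY genes.

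Of 6 measured regulators of disease resistance, 1 was at least 2-fold lower and none was 2-fold higher. Among all genes measured, 5.67% were lower and 5.02% higher by this limit. The lower one was NDR1b, a homologue of a gene needed for resistance in Arabidopsis. It was 2.86-fold lower, with 7.83 in the salinity pool and 9.35 in the mock pool. EDS1-2 and PAD4 are named after Arabidopsis partners in defence signalling. EDS1-2 had a log2 ratio of 0.43, and PAD4 had 0.63 by its brightest set but -0.77 by its other. The regulators therefore went both ways.

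By their brightest sets, all 4 pathogenesis-related genes were at least 2-fold higher, against 5.02% of all genes measured. In parsley, WRKY factors bind the promoter of a gene named PR1, but a shared name does not make it a counterpart of the soybean PR1 genes. PR1-7 had a log2 signal of 13.04 in the salinity pool and 10.74 in the mock pool (4.92-fold higher), and PR1-1 had 13.89 in the salinity pool and 12.25 in the mock pool (3.11-fold). PR-10 was 2.17-fold and PR10 2.10-fold higher. The other set of PR-10 gave a log2 ratio of 0.92, under the 2-fold limit. The other sets of PR1-7 and PR1-1 gave 1.87 and 2.16. The brightest PR1-1 set carries a suffix for several transcripts. These genes were higher in the pool in which no WRKY gene other than WRKY64 was 2-fold higher, and no link between them was tested.

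Markers of organs were read to describe what the pools held. Of 13 genes of the seed storage and trypsin inhibitor list, 4 were measured, KTI-2 and KTI-3, BG7S-1 and GY2, and of 13 nodule genes, 4 were measured. Of these nodule genes, N-36A was 2.34-fold higher, with 11.42 in the salinity pool and 10.20 in the mock pool, and ENOD55-2 was 3.40-fold lower, with 5.47 in the salinity pool and 7.23 in the mock pool. All 6 photosynthesis genes, which are active in green tissue, were above the bound on both arrays. Of the photosynthesis genes, 5 lay below 0, with log2 ratios from -0.62 to 0.20 and a median of -0.28. The part of organ makeup in the WRKY ratios was not tested.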

How the data were processed

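Total RNA was extracted with Trizol, and 10 µg was labelled with biotin for the arrays, per the labels' protocols. The deposited values are log2 signals made by the authors with MAS5, per the submitters' processing notes. The sources used here name no version or later step. In MAS5 each probe set yields 1 signal, and dim signals are less precise. The number of arrays limits the precision. No further normalization was applied.

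Log2 signals under an array's bound were set to the bound, so a ratio is a lower limit where 1 array was under it. A gene's set with the highest mean log2 signal represented it. The limits were 2-fold and 1.5-fold. Python 3.11.15 and pandas 2.3.3 were used, with statsmodels 0.14.6 for loess. The steps were also run on simulated data. The changes planted there were well past 2-fold and in bright genes, so calls near 2-fold or near the bound were not covered. By rule, both signals are given for genes at least 1.5-fold different, the 5 brightest, those whose sets disagree and those above the bound on 1 array, with further sets by their ratios or range; other genes are named by range or by published role. Gene names came from the platform annotation and the RefSeq table of Glycine_max_v4.0. Members, lists, limits and alternatives were chosen with earlier results of these data known. A split of the family by protein structure had been planned and was not made, as no protein or promoter sequences were used here.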

Additional observations from a re-analysis of the deposited data

How the results depend on the processing

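The alternatives were 3 scalings (median, quantile and loess), bounds drawn from the 90th or the 99th percentile, log2(signal + 16) without a floor, the mean over probe sets, leaving out sets with a suffix for several transcripts, and limits of 1.5- and 3-fold. The count of lower WRKY genes stayed between 4 and 6 under all of these except the other limits, at which it was 11 (1.5-fold) and 1 (3-fold, 1.92% against 1.54% of all genes). The count of higher WRKY genes was 1 except with the bound at the 99th percentile (0, among 51 genes measured) and at 1.5-fold (5). At 3-fold it was 1, against 2.27% of all genes. The median stayed between -0.13, with the mean over probe sets, and -0.01, with median centring. Adding LOC100170685, whose RefSeq synonym is a WRKY name, was chosen after seeing the data and left both counts as they were. Of 413 values of single genes under 8 settings, 405 moved by less than 0.32, the spread between probe sets. Many could not move, so this count does not measure stability. Other bounds leave a gene above them on both arrays unchanged, and averaging leaves a gene with 1 set unchanged. Leaving out suffixed sets changes no gene whose brightest set has no suffix. Among the 413 values, 4 turned their sign, none of them from past 2-fold. With the mean over probe sets, WRKY59 was at -0.13 (0.25 by its brightest set) and WRKY39 at -0.14 (0.10). Without suffixed sets, WRKY39 was at -0.24 and WRKY27 at 0.07 (-0.92). Calls changed 4 times. WRKY30 was at -0.997 with loess and -0.96 with log2(signal + 16), WRKY64 at 0.90 with the higher bound, and WRKY56 at -1.08 without suffixed sets. With 1 pool and 1 array a group, no error between plants is known. No paired analysis was possible because each group has 1 array.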

Other observations

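The RefSeq gene order of soybean, used only to see which genes neighbour each other, places 4 pairs of these WRKY genes with at most 10 protein-coding genes between them. WRKY30 and WRKY63 have 2 genes between them, and their log2 ratios were -1.04 and -0.15. WRKY10 and WRKY64 also have 2 between them, and lay at -0.15 and, as a lower limit, 1.67. WRKY41 and WRKY51, with 7 between them, lay at 0.06 and 0.64, and WRKY6 and WRKY40, with 6 between them, at 0.45 and 0.46. The neighbours of WRKY30 and WRKY64, which were themselves past 2-fold, were near level.

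Of the 6 probe sets that name a WRKY gene together with another gene, 5 were above the bound on at least 1 array. Their log2 ratios lay between -0.24 and 0.25, so none was past 1.5-fold.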
